A study of Mus musculus with 12 samples.

Results

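The pan-neuronal differentiation genes described here were 9 genes chosen by name, *Tubb3*, *Dcx*, *Map2*, *Mapt*, *Stmn2*, *Gap43*, *Elavl3*, *Elavl4* and *Rbfox3*, out of 45777 gene identifiers listed in each library. They were found by their NCBI gene identifiers and followed in all 12 bulk RNA-seq libraries of ventral spinal cord from mouse embryos at E12.5, 3 libraries in each of 4 groups. Controls were *Isl2* +/- heterozygotes, with 1 null allele, and mutants were *Isl2* KO, homozygous for that allele, in which exons are replaced by a neomycin cassette. Each genotype was sampled at the brachial level (forelimb) and at the lumbar level (hindlimb), and no *Isl2* +/+ library was compared. The design names 3 animals of each genotype, so a brachial and a lumbar library may share an embryo, and does not say which. *Xist*, a gene expressed in females, was detected in 1 of 3 brachial and 2 of 3 lumbar heterozygote libraries. As labeled, the heterozygote libraries of the 2 levels therefore cannot all come from the same 3 embryos. In every group the tissue was trimmed around *Hb9::GFP*, a reporter that marks motor neurons (MNs), so a library could hold MNs together with other cells of the ventral cord. In such bulk tissue, fewer neurons and less RNA per neuron cannot be told apart.

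Pan-neuronal genes are switched on as newborn neurons leave the cell cycle, whatever their subtype, and are commonly used to mark neurons against progenitors. *Tubb3* encodes the neuronal class III beta-tubulin of microtubules. *Dcx*, *Map2* and *Mapt* encode proteins that bind and stabilize microtubules, and *Stmn2* encodes a tubulin-binding protein that favors their disassembly at the growing axon. *Gap43* encodes a membrane protein of the growth cone. *Elavl3* and *Elavl4* encode neuronal RNA-binding proteins of the Hu family, and *Rbfox3* encodes the splicing factor known as the NeuN antigen, which appears in more mature neurons.

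The longest annotated transcripts ranged from 1420 bases in *Gap43* and 1868 in *Tubb3* to 9074 in *Dcx*, with *Map2* at 6258, *Mapt* at 5253, *Elavl3* at 5014, *Elavl4* at 4149, *Stmn2* at 3413 and *Rbfox3* at 3150. The genes lie on 8 chromosomes of GRCm38, and *Dcx* is the only member on chromosome X. *Tubb3* is at chr8:123411553-123422015 and *Dcx* at chrX:143855842-143933396. *Gap43* is at chr16:42248552-42340651, *Stmn2* at chr3:8509527-8561604 and *Map2* at chr1:66175202-66442583. *Mapt* is at chr11:104229409-104332090 and *Rbfox3* at chr11:118489760-118911597. *Elavl3* is at chr9:22015005-22052146 and *Elavl4* at chr4:110203737-110351939.

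RefSeq promoters (GRCm38.p6) matched 6 of the 9 genes. Those of 4 genes are shown because *Tubb3* correlated negatively with *Dcx* (−0.73), *Elavl3* (−0.62) and *Map2* (−0.60) across the libraries (Pearson, log2 values). *Elavl4* (−0.21) and *Rbfox3* (−0.36), less negative with *Tubb3*, also had promoters and are not shown. The correlations come from libraries shifted with transcript length, as given below, and carry no test. Each sequence is the 150 bases before a RefSeq transcript start, 5′ to 3′ on the strand of the gene. The start lies at the outer edge of the annotated gene for *Tubb3* (chr8:123411403-123411552, plus strand) and inside it for *Map2* (chr1:66175179-66175328, plus strand), *Elavl3* (chr9:22052024-22052173, minus strand) and *Dcx* (chrX:143933220-143933369, minus strand, the outer of its 2 listed starts). Capitals mark 4 motifs searched on both strands, which were the GC box GGGCGG, the CCAAT box, the TATA box as TATAAA, and the E box as CAGCTG. No match overlapped another in these sequences, and a CCAAT box on the opposite strand reads ATTGG.
Tubb3: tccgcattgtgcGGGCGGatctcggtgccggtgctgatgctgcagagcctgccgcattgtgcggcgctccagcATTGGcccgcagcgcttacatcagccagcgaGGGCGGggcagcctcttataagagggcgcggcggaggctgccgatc
Map2: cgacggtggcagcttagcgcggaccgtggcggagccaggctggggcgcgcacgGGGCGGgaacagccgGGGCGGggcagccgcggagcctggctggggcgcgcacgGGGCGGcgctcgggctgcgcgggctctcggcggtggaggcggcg
Elavl3: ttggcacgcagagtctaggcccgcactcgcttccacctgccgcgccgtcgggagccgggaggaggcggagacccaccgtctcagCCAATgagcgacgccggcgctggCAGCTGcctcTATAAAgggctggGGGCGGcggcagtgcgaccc
Dcx: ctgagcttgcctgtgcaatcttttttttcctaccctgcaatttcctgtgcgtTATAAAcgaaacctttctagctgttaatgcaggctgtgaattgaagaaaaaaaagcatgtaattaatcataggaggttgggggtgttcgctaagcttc

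The *Map2* sequence was 82.7% G and C and held GGGCGG at 3 places. The *Tubb3* sequence was 68% G and C and held GGGCGG at 2 places and CCAAT at 1. In *Elavl3*, at 71.3% G and C, each of the 4 motifs occurred at 1 place. The *Dcx* sequence was 40.7% G and C and held TATAAA at 1 place and none of the other motifs. Among 32851 promoter windows of the same length, the median was 54% G and C. GGGCGG was in 28.6% of them, CCAAT in 24.5%, CAGCTG in 8.39% and TATAAA in 7.57%. These matches describe letters and were not compared with any binding data.

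Levels are given as rescaled TPM (TPM, a level per transcript length, set to a common scale between libraries by size factors). Aligned depth ranged from 4.48 Gb (gigabases) in brachial KO replicate 3 to 6.64 Gb in lumbar heterozygote replicate 2, and 22983 to 24191 genes were above 0. *Isl2* was measured at 8.71, 8.36 and 9.67 in the brachial heterozygotes and 6.03, 7.34 and 4.52 in the brachial KO libraries. In the lumbar libraries it was 10.3, 8.42 and 9.36 in heterozygotes and 7.33, 6.48 and 8.27 in KO. Every KO library lay below every heterozygote of its level, with log2 differences of −0.60 (SE 0.18) in brachial and −0.34 (SE 0.13) in lumbar tissue (adjusted p = 0.358 and 0.997, limma). Which exons the remaining reads came from was not tested. Among MN markers, *Mnx1* (Hb9) ranged from 37.6 to 67.1 over the 12 libraries and *Slc18a3*, the vesicular acetylcholine transporter, from 12.1 to 28.5. The muscle gene *Myod1* was listed at 0 in every library, and the sensory neuron gene *Avil* was at most 0.817. Blood was present, with the embryonic globin gene *Hbb-y* between 1235 and 3756.

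All 9 genes were above the expression filter (mean TPM 0.5 or more) in every comparison, and their levels spanned a wide range. *Tubb3* was the highest, at 2608 ± 219.9 (SD, n = 12), and ranked 12th to 15th among all genes in each library. It was followed by *Gap43* at 590.1 ± 88.4, *Map2* at 432 ± 44.7, *Stmn2* at 371 ± 32.9 and *Mapt* at 259 ± 43.2. *Elavl4* was at 217 ± 14.2, *Dcx* at 172 ± 55.7 and *Elavl3* at 83.0 ± 11.3. *Rbfox3*, the marker of mature neurons, was the lowest, at 8.75 ± 2.03, and its rank lay between 7979 and 10511. *Tubb3* exceeded *Gap43* 4.42-fold, *Dcx* exceeded *Elavl3* 2.07-fold and *Elavl3* exceeded *Rbfox3* 9.49-fold with no overlap over the 12 libraries. The ranges of all other neighbors in this order overlapped.

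The members differed in how steady they were. *Elavl4* varied least, with a coefficient of variation of 6.56% over the 12 libraries, and *Tubb3* and *Stmn2* varied by 8.43% and 8.86%. *Dcx* varied most, by 32.4%, with a 2.64-fold range from 124 to 327. *Rbfox3*, the member of lowest level, followed at 23.2%. The plot of every library by group shows these spreads.

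**Figure D1:**
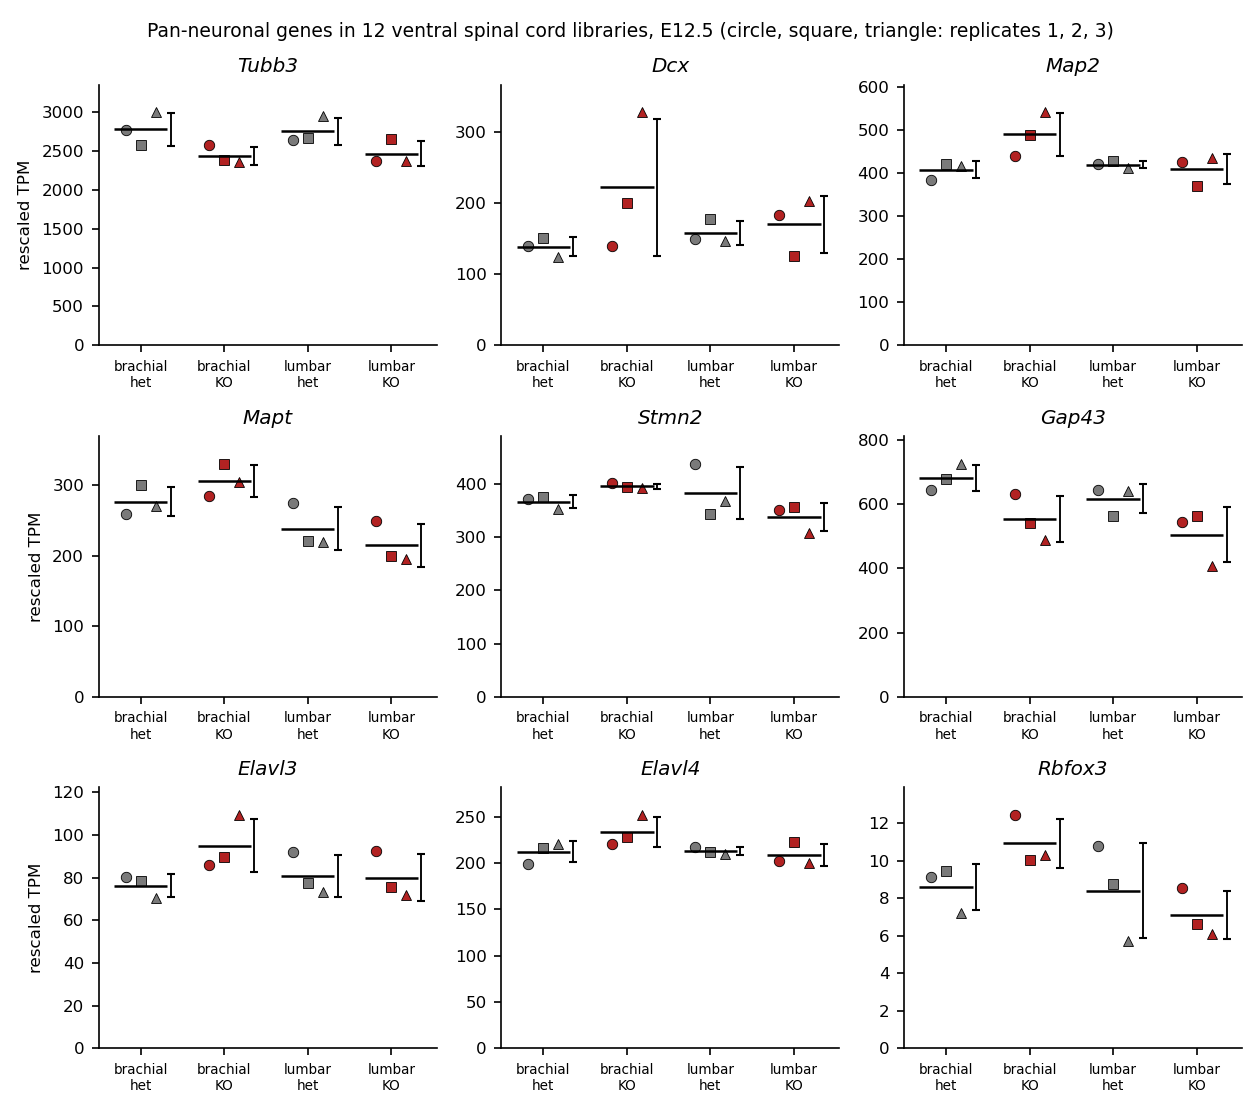
Rescaled TPM of the 9 genes (vertical axes, starting at 0) in each of the 12 libraries, by level and genotype. Points are libraries (circle, square and triangle for replicates 1, 2 and 3), horizontal lines are group means and error bars are ± 1 SD (n = 3). *Dcx* in brachial KO replicate 3 stands at 327, whereas the other brachial libraries lie between 124 and 199, and *Mapt* lies lower in the lumbar groups.

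The question of the study at each level was which genes depend on *Isl2*. None of the 9 pan-neuronal genes passed an adjusted p of 0.05 between *Isl2* KO and heterozygotes at either level (limma, Benjamini-Hochberg over all genes tested). At the brachial level 7 of the 9 were higher on average in KO and 2, *Tubb3* and *Gap43*, were lower, with a median log2 difference of 0.15 beside −0.0019 over all genes. At the lumbar level 1 of the 9 was higher and 8 were lower, with a median of −0.15 beside −0.0057 over all genes (−0.044 with quantile normalization). With 3 libraries against 3, an exact permutation test of a single gene cannot go below p = 0.1.

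Among the microtubule genes, *Tubb3* was measured in brachial heterozygotes at 2772, 2572 and 2995 and in brachial KO at 2572, 2378 and 2356. Brachial KO replicate 1 lay marginally above heterozygote replicate 2, so the groups overlapped. The log2 difference was −0.19 (95% interval −0.45 to 0.07), and it was −0.022 in TPM as deposited and −0.034 with quantile normalization. Lumbar values were 2635, 2669 and 2951 in heterozygotes and 2375, 2656 and 2367 in KO, again with overlap. That log2 difference was −0.16 (−0.39 to 0.07).

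*Dcx*, the X-linked microtubule-binding protein of migrating neurons, was at 139.9, 151 and 124 in brachial heterozygotes and at 139, 199 and 327 in brachial KO. The KO values ranged from a level within the heterozygotes to more than the heterozygote maximum in replicates 2 and 3, and the mean log2 difference of 0.60 had an interval of −0.03 to 1.23. Taken library by library against the heterozygote mean, the log2 differences were 0.015, 0.53 and 1.25. Lumbar *Dcx* was at 149, 178 and 146 in heterozygotes and 183, 125 and 202 in KO, a log2 difference of 0.085 (−0.31 to 0.48). Those groups overlapped. *Xist*, expressed in females, was detected in brachial heterozygote replicate 3 (*Dcx* at 124) and brachial KO replicate 3 (327). In lumbar tissue it was detected in heterozygote replicates 1 (149) and 3 (146) and KO replicate 2 (125). The part of sex in the *Dcx* values was not tested.

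*Map2*, the dendritic microtubule-associated protein, was at 385, 421 and 417 in brachial heterozygotes and at 440.3, 488 and 540.5 in brachial KO. Every KO library exceeded every heterozygote, with a log2 difference of 0.26 (0.04 to 0.48), an unadjusted p of 0.0246 and an adjusted p of 0.358 (limma). The lumbar values of 419.9, 427 and 411 in heterozygotes and 425, 370.5 and 434 in KO overlapped, and the log2 difference was −0.035 (−0.22 to 0.15).

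*Mapt*, which encodes the axonal protein tau, was at 259, 300.0 and 271 in brachial heterozygotes and at 285, 330.3 and 304 in brachial KO. The groups overlapped, with a log2 difference of 0.15 (−0.06 to 0.35). Lumbar values were 274, 221 and 219.8 in heterozygotes and 249, 200.0 and 195 in KO. These overlapped too, with a log2 difference of −0.15 (−0.44 to 0.13).

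*Stmn2* was at 371, 375 and 352 in brachial heterozygotes and at 401, 394 and 392 in brachial KO. The groups did not overlap, but the log2 difference was 0.11 (−0.04 to 0.26). It was larger under other scalings, at 0.28 in TPM as deposited, 0.24 with quantile normalization and 0.19 on protein-coding genes. Lumbar libraries had 438, 344 and 368 in heterozygotes and 350.3, 357 and 309 in KO, a log2 difference of −0.17 (−0.42 to 0.07). All 3 lumbar KO libraries were below the heterozygote mean, yet 2 of them lay within the heterozygote range.

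*Gap43*, the growth cone protein, was the member with the lowest KO value relative to heterozygotes at both levels. At the brachial level it was at 644, 679 and 726 in heterozygotes and at 632, 542 and 489.7 in KO. At the lumbar level it was at 645, 565 and 642 in heterozygotes and at 544, 564 and 408 in KO. In rescaled values the genotypes did not overlap at either level, although the nearest lumbar libraries differed by less than 1 TPM, and in TPM as deposited they overlapped at both. The log2 differences were −0.31 (−0.56 to −0.05, unadjusted p = 0.0236, adjusted p = 0.358) and −0.30 (−0.60 to −0.00086, unadjusted p = 0.0495, adjusted p = 0.997) in limma. The brachial value was −0.14 in TPM as deposited and −0.12 with quantile normalization, and the lumbar value was −0.15 without lumbar KO replicate 3.

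Of the RNA-binding proteins, *Elavl3* was at 80.3, 78.3 and 70.4 in brachial heterozygotes and at 85.9, 89.8 and 109 in brachial KO. Every KO library was the higher, with a log2 difference of 0.31 (0.07 to 0.55), an unadjusted p of 0.0192 and an adjusted p of 0.358 (limma). Lumbar levels were 91.9, 77.5 and 73.3 in heterozygotes and 92.4, 75.6 and 71.9 in KO, nearly the same values, and the log2 difference was −0.018 (−0.29 to 0.26).

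*Elavl4* was at 199, 216 and 221 in brachial heterozygotes and at 220.3, 228 and 251 in brachial KO, with overlap and a log2 difference of 0.14 (−0.04 to 0.32). Lumbar levels were 218, 212 and 210.1 in heterozygotes and 203, 222 and 201 in KO. These overlapped as well, with a log2 difference of −0.034 (−0.19 to 0.12), the narrowest lumbar interval of the 9 genes.

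*Rbfox3* was at 9.14, 9.42 and 7.22 in brachial heterozygotes and at 12.4, 10.0 and 10.3 in brachial KO. The groups did not overlap, with a log2 difference of 0.34 (0.02 to 0.67), an unadjusted p of 0.0422 and an adjusted p of 0.358 (limma). Lumbar values were 10.8, 8.75 and 5.70 in heterozygotes and 8.52, 6.62 and 6.10 in KO, and these overlapped with a log2 difference of −0.21 (−0.76 to 0.33). *Rbfox3* had the widest lumbar interval of the 9.

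At the brachial level 4 of the 9 members passed an unadjusted p of 0.05 in limma, *Elavl3*, *Gap43*, *Map2* and *Rbfox3*, beside 13.9% of the 16935 genes tested. That count of 4 was 1 without heterozygote replicate 3, beside 4.63% of all genes in that setting. It was 2 without heterozygote replicate 1 (7.17%), KO replicate 2 (8.84%) or KO replicate 3 (6.3%), and 7 in TPM as deposited (17%) or scaled on protein-coding genes (17.2%). Genotypes did not overlap for 5 of the 9, these 4 and *Stmn2*, beside 20.2% of all genes. An adjusted p under 0.05 was reached by 0.0059% of all genes, which is 1 gene, *Uts2b*, named here after its value was seen. Leaving out 1 library gave 0 such genes without heterozygote replicate 1 or 3 and 8, 4 and 6 without KO replicates 1, 2 and 3, none of them a member. When TPM was used as deposited, the median of all genes at the brachial level shifted to 0.16 and that of the members to 0.31, still with 7 above 0 and 2 below. At the lumbar level 1 member, *Gap43*, passed an unadjusted p of 0.05 beside 4.86% of 16511 genes, and *Gap43* was also the 1 member without overlap beside 9.94%. That count at an unadjusted p was 0 in TPM as deposited and without heterozygote replicate 1 or KO replicate 3, and 2 without KO replicate 1 or 2. An adjusted p under 0.05 was reached by 0% of genes there, at most 4 genes without 1 library (KO replicate 3), and 802 of them had an unadjusted p under 0.05.

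**Figure D2:**
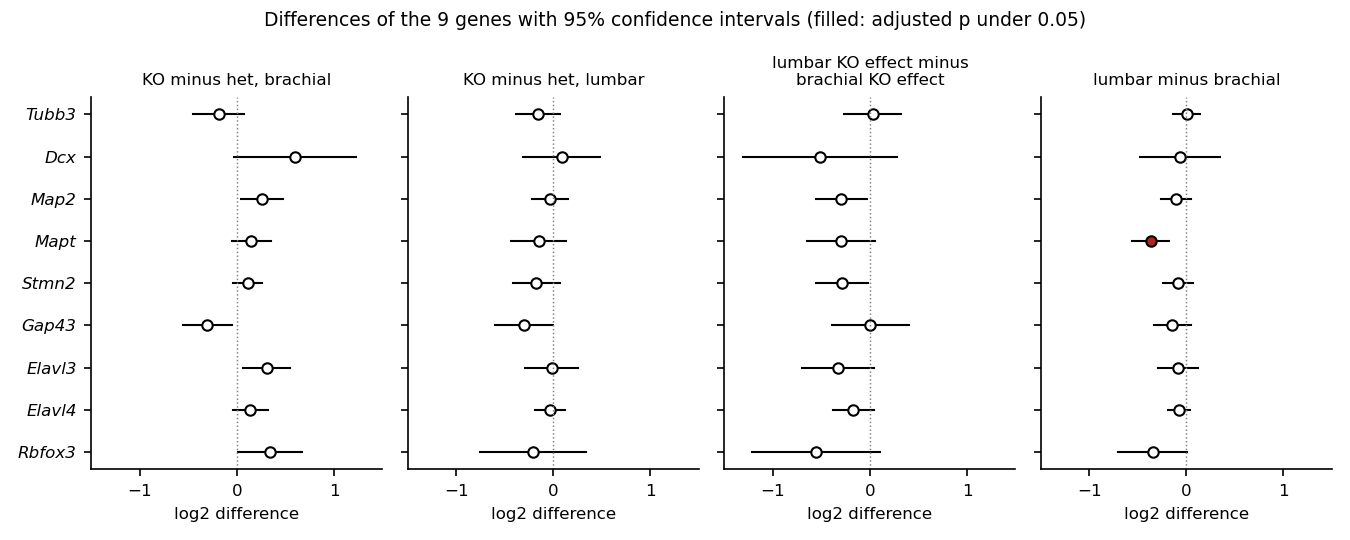
Log2 differences of the 9 genes (horizontal axes) with 95% confidence intervals from limma in 4 comparisons, KO minus heterozygote at each level (n = 3 and 3), the difference between these effects and lumbar minus brachial (12 libraries). The filled point has an adjusted p under 0.05, which only *Mapt* reached, at −0.37 in the lumbar against brachial comparison.

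The brachial differences tended to increase with transcript length. *Gap43* and *Tubb3*, the members with the shortest transcripts, were the 2 below 0, and *Dcx*, the longest, had the highest value, with a Spearman correlation of 0.7 across the 9 members. *Rbfox3*, the third shortest, stood outside this order with the second-highest value. The same relation was present over all genes. Among 15862 tested genes with an annotated length, which are 93.7% of those tested, the Spearman correlation of the brachial log2 difference with length was 0.42, and the median log2 difference went from −0.14 in transcripts up to 1000 bases to 0.31 in those over 8000. In the lumbar comparison this correlation was 0.085 over all genes, and the class medians lay between −0.035 and 0.039. Across the members it was 0.82 at the lumbar level.

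Brachial libraries of both genotypes were shifted with length, in opposite directions. The deviations of KO replicates 2 and 3 from the mean of all libraries had Spearman correlations with length of 0.25 and 0.40 over 15686 genes, and those of heterozygote replicates 1 and 3 had −0.22 and −0.24. In KO replicate 1 and heterozygote replicate 2 the correlations were −0.048 and −0.059. Lumbar libraries were shifted too, with −0.23 in heterozygote replicate 3, −0.22 in KO replicate 2 and −0.13 in heterozygote replicate 2. Lumbar heterozygote replicate 1 was at −0.00037, and lumbar KO replicates 1 and 3 at 0.074 and 0.011. Brachial KO replicate 3 was also the library of least depth. The members of brachial KO replicate 1, compared with the heterozygote mean, had log2 differences of 0.01 for *Dcx*, 0.04 for *Mapt*, 0.06 for *Elavl4*, 0.11 for *Map2*, 0.13 for *Stmn2*, 0.17 for *Elavl3* and 0.53 for *Rbfox3*. *Tubb3* and *Gap43* were at −0.11 in it. Whether transcript length or depth had a part in the brachial differences was not tested.

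With the trend of each library against length removed, an alternative chosen after seeing the data, 7 of the 9 members remained above 0 and 2 below at the brachial level. The median of the members was then 0.088, 2 of them, *Elavl3* (0.19) and *Rbfox3* (0.34), had an unadjusted p under 0.05 beside 9.45% of genes, and no member had an adjusted p below 0.513 (limma). *Map2* moved from 0.26 to 0.088, *Mapt* from 0.15 to 0.019 and *Dcx* from 0.60 to 0.33. *Gap43* moved from −0.31 to −0.19. At the lumbar level the same removal left *Gap43* at −0.28, with no member at an unadjusted p under 0.05. With length and GC trends both removed, 6 members were above 0 and 3 below at the brachial level. In that setting 1 member had an unadjusted p under 0.05, beside 9.5% of genes.

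**Figure D3:**
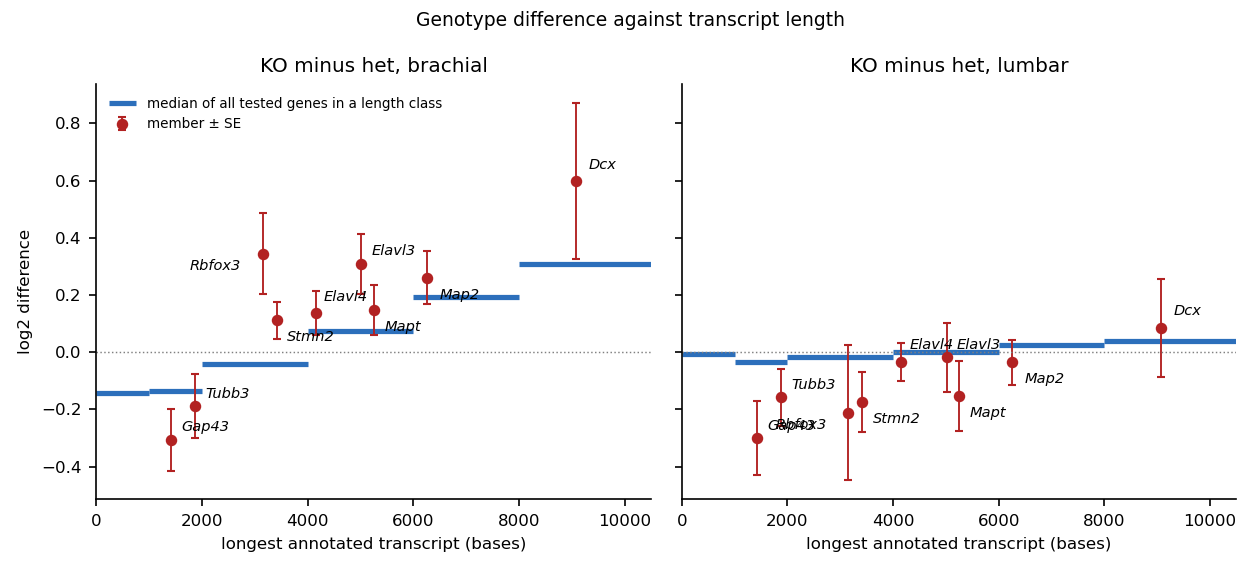
Log2 difference between KO and heterozygote (vertical axis) of the 9 genes against the length of the longest annotated transcript in bases, with SE bars (n = 3 and 3), at the brachial (left) and lumbar (right) level. Blue lines are medians of all tested genes in 6 length classes, which climb from −0.14 to 0.31 at the brachial level and stay between −0.035 and 0.039 at the lumbar level.

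Whether the effect of genotype differed between levels was tested directly, as the lumbar minus the brachial log2 difference in all 12 libraries. No member passed an adjusted p of 0.05 (lowest 0.805, limma), and 0% of the 16736 genes tested did. An unadjusted p under 0.05 was reached by 2 members, *Map2* at −0.30 (95% interval −0.56 to −0.03) and *Stmn2* at −0.29 (−0.56 to −0.01), beside 4.44% of all genes, or 743 genes. That count of 2 was 3 under each of the other 3 scalings, beside 4.27% to 4.85% of all genes. It was 0 without brachial heterozygote replicate 1 (3.06% of all genes), brachial KO replicate 3 (2.93%) or lumbar heterozygote replicate 1 (2.4%), and 5 without lumbar KO replicate 1 (7.22%). Both were higher on average in KO than in heterozygotes at the brachial level and lower at the lumbar level. *Dcx* (−0.51), *Rbfox3* (−0.56), *Elavl3* (−0.33), *Mapt* (−0.30) and *Elavl4* (−0.17) had the same sign with intervals that included 0. *Gap43* was at 0.0052 (−0.39 to 0.40) and *Tubb3* at 0.031 (−0.26 to 0.32). Under other scalings these 2 values were negative, from −0.13 to −0.022 for *Tubb3* and from −0.21 to −0.066 for *Gap43*. This comparison rests on the same brachial KO libraries, and over all genes its values had a Spearman correlation of −0.37 with length. Without brachial KO replicates 2 and 3, 1 library stood for brachial KO, with its spread assumed to be that of the other groups. *Map2* was then at −0.15, *Stmn2* at −0.31 and *Dcx* at 0.070, 8 of the 9 members were negative with a median of −0.19, and none had an unadjusted p under 0.05.

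Between levels, with genotype as a covariate, *Mapt* was the only member called, and it was lower at the lumbar level. Its mean was 292 ± 25.5 in the 6 brachial and 227 ± 30.3 in the 6 lumbar libraries, a log2 difference of −0.37 (95% interval −0.56 to −0.18, adjusted p = 0.0124, limma). In KO libraries the levels did not overlap (285 to 330.3 against 195 to 249), and in heterozygotes they did (259 to 300.0 against 219.8 to 274). Taken alone, the KO libraries gave −0.52 (adjusted p = 0.0576) and the heterozygotes −0.22 (adjusted p = 0.287). Without brachial KO replicates 2 and 3 the difference was −0.29 (adjusted p = 0.0736), and with the length trend removed it was −0.31 (adjusted p = 0.00924).

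The other 8 members were not called between levels. *Rbfox3* averaged 9.75 ± 1.69 in brachial and 7.74 ± 1.94 in lumbar libraries (SD, n = 6 each), a log2 difference of −0.35 (−0.70 to 0.01, adjusted p = 0.164), and passed when lumbar heterozygote replicate 1 was left out (−0.47, adjusted p = 0.0364). *Gap43* was at −0.14 (−0.33 to 0.04) and *Map2* at −0.11 (−0.26 to 0.05). *Elavl3*, *Stmn2*, *Elavl4* and *Dcx* lay between −0.084 and −0.068. *Tubb3* was at 0.0018, with the narrow interval of −0.14 to 0.14, in libraries that averaged 2607 and 2609. This share, 1 of 9 called, stood beside 18.9% of the 16736 genes tested. At an unadjusted p under 0.05 it was also 1 of 9, beside 32.4%, and 0 of 9 had levels that did not overlap, beside 8.32%. The count at an unadjusted p under 0.05 depended on the scaling, with 6 of 9 in TPM as deposited (33.2% of all genes), 5 with quantile normalization (32.6%) and 4 scaled on protein-coding genes (38.1%). It was 1 to 3 with single libraries left out (27% to 35.2%) and 3 with the replicate block (30.6%). When TPM was used as deposited, the median of all genes shifted to −0.13 and all 9 members were below 0, and *Tubb3*, at −0.13, then lay at that median. Of the genes called between levels, 46.4% were higher at the lumbar level in the rescaled values, 22.6% in the deposited values and 32.0% when the scale was set on protein-coding genes.

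Other neuronal genes were followed in lists that do not contain the 9 members, and their counts stand beside the 18.9% of all genes called between levels. Neuronal maturation genes, which encode synaptic vesicle, neurofilament and signaling proteins of older neurons, were lower at the lumbar level in 25 of 26 cases, and 13 of the 26 were called lower and 0 higher, with a median log2 difference of −0.34. Among them were *Snap25*, a subunit of the vesicle fusion machinery, at −0.45 (adjusted p = 0.00041), *Rab3a*, a vesicle GTPase, at −0.35 (0.000649) and *Camk2b*, a calcium-dependent kinase, at −0.73 (0.00139). Of 15 neuronal RNA-binding protein genes, 3 were called lower, *Nova1* (−0.70, adjusted p = 0.00127), *Rbfox1* (−0.75, 0.00572) and *Celf4* (−0.33, 0.0106), and 0 higher, a share near that of all genes. *Rbfox1* is a paralog of *Rbfox3*. Under the other 3 scalings 15 to 16 maturation genes and 3 to 6 RNA-binding protein genes were called lower, and none higher.

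The cytoskeletal and growth cone lists held genes called in both directions. Of 25 neuronal cytoskeleton genes 3 were called lower and 1 higher at the lumbar level, a share near the 18.9% of all genes. *Map7d2*, encoding a microtubule-binding protein, was lower (−0.41, adjusted p = 0.021), and so was the beta-tubulin gene *Tubb2a* (−0.22, 0.024), while *Dpysl4*, a collapsin response mediator, was higher (0.30, 0.00879). Of 20 tested growth cone and axon membrane genes 5 were called lower and 1 higher. The adhesion molecule gene *Chl1* was the one called higher (0.50, adjusted p = 0.00364), and *Gpm6a*, a neuronal membrane glycoprotein, was lower (−0.31, 0.00501), as was the endosomal gene *Nsg2* (−0.21, 0.0164). In TPM as deposited neither list held a gene called higher, and 6 and 7 genes were called lower. Leaving out single libraries moved the cytoskeleton genes called lower between 0, without replicate 2 of the brachial heterozygotes or KO, and 5, without lumbar heterozygote replicate 1. It moved the growth cone genes called lower between 2, for each of 6 libraries left out, and 6, without lumbar heterozygote replicate 1.

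Cell cycle genes ran the other way. All 20 of them were called higher at the lumbar level, with a median of 0.76, and *Top2a*, which untangles DNA, was at 0.97 (adjusted p = 0.00182), and all 20 were called higher under the other 3 scalings too. In heterozygote libraries alone 3 of the 20 were called higher, with a median of 0.61, and 3 of the 26 maturation genes lower, with a median of −0.21, beside 2.97% of all genes called. In KO libraries alone these were 4 with a median of 0.96 and 3 with a median of −0.52, beside 1.77%. Without brachial KO replicates 2 and 3, 18 of the 20 cell cycle genes were called higher and 8 of the 26 maturation genes lower, beside 12.3%. Their summed level ranged from 449 to 627 in brachial heterozygotes, 414 to 638 in brachial KO, 682 to 904 in lumbar heterozygotes and 858 to 1155 in lumbar KO. The transcription factor and progenitor lists were mixed. Of 25 neurogenic and neuronal transcription factor genes 7 were called higher and 4 lower, with *Neurod4*, a factor of newborn neurons, at 1.18 (adjusted p = 0.003) and *Neurod2*, of later ones, at −1.52 (0.00331). Of 21 progenitor genes 6 were called higher and 3 lower, *Vim* at 0.33 (0.00615) and *Slc1a3* at −0.53 (0.00139) among them. With single libraries left out, the transcription factor genes called higher numbered 5 to 11 and the progenitor genes 6 to 10, both highest without brachial KO replicate 3. Beside the lower *Mapt*, then, stood more cell cycle RNA in the same libraries, and its part in the *Mapt* difference was not tested.

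**Figure D4:**
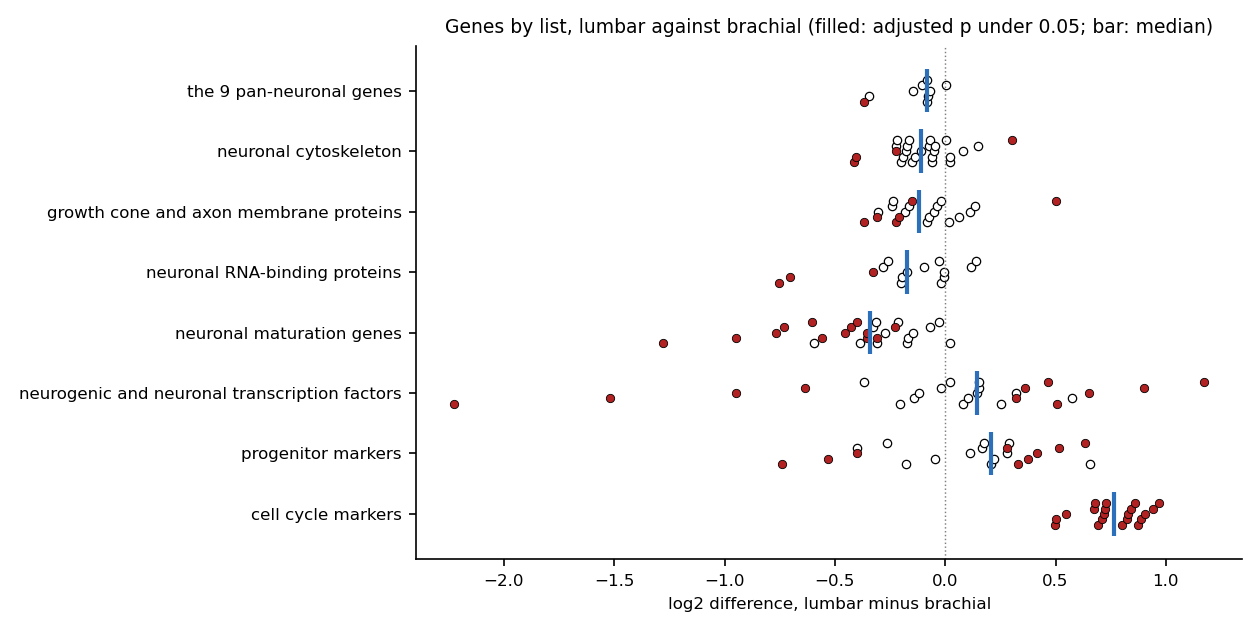
Log2 difference, lumbar minus brachial (horizontal axis, 12 libraries with genotype as a covariate), of every tested gene of 8 lists. Filled points have an adjusted p under 0.05 (limma) and blue bars are medians, at −0.084 for the 9 pan-neuronal genes, −0.34 for neuronal maturation genes and 0.76 for cell cycle markers.

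Counts of called markers of other cells differed between lists, beside the same 18.9% of all genes. Called lower at the lumbar level were 6 of 10 endothelial genes and 5 of 10 tested microglia and macrophage genes. The endothelial sum was 127 to 133 in brachial and 88.7 to 96.0 in lumbar heterozygotes, and in KO it overlapped, at 98.8 to 129 and 86.6 to 103. The microglia sum was 31.6 to 36.0 and 20.2 to 27.3 in heterozygotes and 28.0 to 47.2 and 14.1 to 27.5 in KO. In KO libraries alone, where 1.77% of all genes were called, 0 of the genes of either list were. Of 9 tested Schwann cell and neural crest genes 3 were lower, of 5 tested mesenchyme genes 3 were lower, and of 16 MN markers 5 were lower and 0 higher. Without lumbar KO replicate 3, 5 MN markers were called higher beside the 5 lower. With single libraries left out, Schwann cell genes called lower numbered 2 (without brachial heterozygote replicate 2) to 6 (without lumbar heterozygote replicate 1), and mesenchyme genes 1 (for each of 5 libraries left out) to 3. Of 11 tested sensory neuron genes 2 were higher and 1 lower, of 4 tested muscle genes 1 was higher, and of 11 tested blood genes 0 were called. Leaving out single libraries gave 1 to 3 sensory genes higher and 0 to 1 lower, and 0 to 2 muscle genes higher and 0 to 1 lower. The part of these markers of other cells in the level difference of *Mapt* was not tested.

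No gene of any of these lists passed an adjusted p of 0.05 between genotypes at either level or in the difference between levels (limma). At the lumbar level 20 of 20 cell cycle genes were higher on average in KO, with a median of 0.36 and 9 at an unadjusted p under 0.05 beside 4.86% of all genes, and 17 of 21 progenitor genes were higher, 7 of the list at that p. In the same libraries 8 of the 9 members, 22 of 26 maturation genes, 22 of 25 cytoskeleton genes and 15 of 16 MN markers were lower on average. At that p were 7 of the MN list, 2 of the maturation list and 0 of the cytoskeleton list. The MN list contains *Isl2*, the gene mutated by design, which was among the 15 lower and the 7 at that p. *Ube2c*, a mitotic ubiquitin-conjugating enzyme, was at 0.41 (adjusted p = 0.964) and *Chodl*, a marker of fast MNs, at −0.67 (adjusted p = 0.597). At the brachial level 10 of 20 cell cycle genes were higher, 14 of 21 progenitor genes and 19 of 26 maturation genes. So were 16 of 25 cytoskeleton genes, 9 of 16 MN markers and 23 of 25 transcription factor genes. In these lists 0, 0, 9, 8, 4 and 4 genes, in that order, had an unadjusted p under 0.05, beside 13.9% of all genes. Transcription factor genes were also mostly higher in KO at the lumbar level, 20 of 25, with 0 at that p. *Syt1*, a synaptic vesicle calcium sensor, was at 0.36 (adjusted p = 0.358) and *Map1b*, a microtubule-associated protein with a long transcript, at 0.52 (0.358). Of 11 tested blood genes 11 were higher on average in KO at each level, with medians of 0.49 and 0.54. Their summed level ranged from 2497 to 4192 in brachial heterozygotes against 3484 to 7198 in brachial KO, and from 2461 to 3936 against 3212 to 5154 in the lumbar groups. The part of blood, cell cycle or MN markers in the member differences was not tested.

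The 9 genes did not vary as a block. Of their 36 pairs, 25 had a positive Pearson correlation of log2 values over the 12 libraries, with a median of 0.41. *Dcx* and *Map2* were the closest pair at 0.86, followed by *Mapt* and *Rbfox3* at 0.77 and *Tubb3* and *Gap43* at 0.76. *Tubb3* ran against *Dcx* at −0.73 and *Gap43* against *Dcx* at −0.71. Without brachial KO replicates 2 and 3 the median of the 36 pairs was 0.23, and 23 were positive. These values describe 12 libraries of 4 groups that share depth and length shifts and carry no test.

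The mean profile of the 9 genes, each centred on its own mean log2 level, was highest in brachial KO replicate 3 (0.24) and lowest in lumbar KO replicate 3 (−0.20). Each member is part of this mean, which raises its own correlation with it. *Mapt* followed it most closely of the members (Pearson 0.89), then *Elavl3* (0.84) and *Rbfox3* (0.84), whereas *Gap43* (0.14) and *Tubb3* (−0.34) did not follow it. Among 11061 genes whose mean TPM was 5 or more, the most alike outside the set were *Arl8a* (0.97), *Adgrl1* (0.97), *Sdc3* (0.97), *Ywhag* (0.96), *Kif3c* (0.96), *Anks1* (0.95), *Zfp46* (0.95), *Xkr7* (0.95), *Smpd3* (0.94) and *Kazn* (0.94). Most opposite were *Mmut* (−0.96), *Mospd1* (−0.95), *Rpl7l1* (−0.95), *Mrpl2* (−0.94) and *Pank4* (−0.94).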

How the data were processed

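Bulk RNA-seq of E12.5 ventral spinal cord was analysed in 12 libraries, grouped by their labels. Per the labels and the methods of the study, ribosomal RNA was depleted, reads were trimmed with Trimmomatic 0.38, mapped to mm10 with HISAT2 2.1.0 and Bowtie2 2.3.4.1, and quantified per library with StringTie 2.1.3b. Each deposited table held TPM, which sums to a fixed total in a library, FPKM from the same StringTie run, and coverage, the mean read depth over a gene. No counts were used here, so DESeq2, which the authors used, was not run. The ratio of coverage to FPKM, equal within 1% for 94.1% to 95.7% of genes with a single transcript, gave the aligned bases. Counting error per gene is unknown.

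Symbols and coordinates came from RefSeq (GRCm38.p6), which held 45679 of 45777 identifiers, 96.1% with identical coordinates. Values of 6 identifiers on more than 1 line were summed. Transcript lengths are those of the longest GENCODE transcript. Since 5 small RNAs took 23.7% to 38.2% of TPM, size factors (median of ratios) put TPM on a common scale. Values plus 0.1 were taken to log2 and entered into limma (version 3.58.1, R version 4.3.3; lmFit, then eBayes with trend) for every gene whose mean TPM reached 0.5, two-sided, with Benjamini-Hochberg adjustment over all genes and 0.05 as the threshold. Fold changes of low genes are understated on this scale. Genotypes were compared in the 6 libraries of a level, and the interaction and levels in all 12. The libraries of a group are separate by label. The fit was checked on simulated data.

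Named genes are the 9 members, the 3 genes of smallest p in a list where that list is described (those shown), and the 10 most and 5 least alike genes. Outside this rule are *Isl2*, *Xist*, *Uts2b* and the marker genes of the tissue check (*Mnx1*, *Slc18a3*, *Myod1*, *Avil* and *Hbb-y*), chosen with values seen. The members, lists and tests were chosen with earlier results of these data known. Same-numbered libraries did not vary together (correlations of deviations from −0.22 to 0.34), and sex by *Xist* differed in 3 of 6 same-numbered pairs of levels. Numbers were therefore used to pair libraries only in the replicate block, an alternative. Alternatives were other pseudocounts, filters, scalings, coverage, no trend, a replicate block, leaving out libraries, and removing length and GC trends, the last chosen after seeing the data.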

Additional observations from a re-analysis of the deposited data

Results flagged for a closer look

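Among 18 groups of values, the 9 genes in the 6 libraries of each level, 2 held a value far from the rest, both by a narrow margin. Chance sets about 1 in 20 groups apart, so about 1 of 18, and the genes are correlated. For *Dcx* at the brachial level, the gap between KO replicate 3 (327) and the next library (199) was 0.629 of the whole range. For *Map2* at the lumbar level, the gap between KO replicate 2 (370.5) and the next library (411) was 0.635 of the whole range. Brachial KO replicate 3 was the library of least depth and had the highest Spearman correlation with transcript length (0.40 over all genes), and lumbar KO replicate 2 had a correlation of −0.22 with length. Their part in these values was not tested.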

How the results depend on the processing

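No member was called between genotypes or in the interaction under any alternative run (0 in each, leaving out each library included). Between levels 1 member was called in the values as reported, 2 with quantile normalization (*Gap43* too, −0.30), 0 in heterozygote or KO libraries only, 0 without brachial KO replicates 2 and 3 (chosen after seeing the data), and 1 to 2 when each library was left out. The replicate block left 0 members called in both genotype comparisons and the interaction and 1 between levels, *Mapt*, with an adjusted p of 0.0437 (limma). This block pairs libraries by number, although 3 of 6 same-numbered pairs of levels differed in sex by *Xist*. It therefore cannot show the effect of shared embryos. In that fit 2358 genes were called between levels, against 3161. Leaving out single libraries moved the genes at an unadjusted p under 0.05 at the brachial level between 789 and 4329 and in the interaction between 400 and 2108, from 2361 and 743. Removing the length trend left 1499 at the brachial level. Genes called between levels ranged from 300 to 3615 over the other alternatives. No depth per gene was known, and *Rbfox3* is the member whose low level limits it most.

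Of 810 alternative values of single members, 757 kept their direction and side of the threshold. Those that changed sign were uncalled, and the cause was not tested. In the interaction, *Tubb3* was at −0.13 in TPM as deposited, −0.022 with quantile normalization, −0.040 over protein-coding genes, −0.037 with length and −0.0054 with length and GC trends removed, and −0.049 without brachial KO replicates 2 and 3. *Gap43* was at −0.15, −0.21, −0.066, −0.092, −0.099 and −0.19 under these settings, and *Dcx* at 0.070 under the last. Between levels *Tubb3* was at −0.13 in TPM as deposited, −0.060 over protein-coding genes, −0.014 in heterozygotes, −0.0013 with the length trend removed and −0.030 without the 2 KO libraries. In heterozygotes only, *Dcx* was at 0.19, *Stmn2* at 0.059, *Elavl3* at 0.079, *Elavl4* at 0.0093 and *Map2* at 0.041. *Dcx* was at 0.022 with the length trend removed and 0.21 without the 2 KO libraries, and *Elavl3* at 0.0032 with length and GC trends removed and 0.016 without those libraries. *Mapt* at the brachial level was at −0.0034 with length and GC trends removed. Leaving out each library gave lumbar KO differences of −0.46 to −0.012 for *Rbfox3*, −0.26 to −0.048 for *Mapt*, −0.25 to −0.075 for *Stmn2*, −0.054 to 0.29 for *Dcx*, −0.13 to 0.077 for *Elavl3* and −0.078 to 0.036 for *Map2*. It gave interactions of −0.024 to 0.085 for *Tubb3* and −0.082 to 0.15 for *Gap43*, and level differences of −0.024 to 0.028 for *Tubb3* and −0.17 to 0.10 for *Dcx*.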
